A study of Xenopus tropicalis with 2 samples.

Results

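The 3793 peaks described here, of 124349 in a genome occupancy profile of tadpole tail tissue, lay on unplaced scaffolds with few peaks and were below a ceiling on coverage. A peak belonged to the set if its sequence was not named as a chromosome, if that sequence held 3 or fewer peaks in the whole table, and if its reads summed over both libraries came to under 400. The set lay on 2228 scaffolds, 60.1% of the 3706 scaffolds with any peak, but made up only 12.6% of the 30166 scaffold peaks. They were set beside 18274 peaks under the same ceiling on the 341 scaffolds that held 20 or more peaks, called large scaffolds below. The word small therefore refers to the number of peaks, since scaffold lengths are not in the table.

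The material was tail tissue of wild-type Xenopus tropicalis, a frog whose tadpoles regrow an amputated tail. Tadpoles were reared at 23 °C, the rear part of the tail was cut at Nieuwkoop-Faber (NF) stage 41, and both libraries are labelled 0 hours post amputation. Both were made from genomic DNA; 1 came from dissociated tissue without sorting and 1 after a pass through a fluorescence-activated cell sorter. The labels give wild type for both and name no transgene, gate or cell type, and they do not say how many animals were pooled. The unsorted library held 3176954 and the sorted library 3111092 reads in peaks. With 1 library per group, there is no replicate error to hold a difference against, and no test between conditions was possible. Intervals of ratios cover counting error only, unless stated to be widened. Intervals of shares of peaks and widened intervals of ratios take peaks as independent, which peaks of 1 scaffold are not.

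Occupancy profiling counts sequenced DNA fragments along the genome, and a peak is a short window where they pile up, as at accessible or bound DNA. Unplaced scaffolds are assembled stretches that could not be assigned to a chromosome. Short ones often hold repeated or otherwise hard to assemble sequence, and reads that also match other places in a genome can be counted at them or lost from them, depending on how multiple matches are handled. The sources used here do not say how such reads were handled, and its part in the values below was not tested. No genome of the build of these files was at hand, so no sequence is shown and no peak is assigned to a gene.

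Of the small scaffolds with a peak in the set, 1081 held a single peak, 661 held 2 and 486 held 3. The names were scaffold_ and a number for all but 17 peaks on 12 sequences named unplaced_. All of these peaks were 400 bases wide, and 59 overlapped another peak, so that a few reads may count for both members of a pair. Neighbouring peaks of any coverage on small scaffolds began a median of 1347 bases apart, against 3720.5 bases on large scaffolds. Spacing within 5000 bases was found for 93.1% of 1681 neighbouring pairs on small scaffolds and for 57.7% of 18244 on large ones. The last peak of a small scaffold, whatever its coverage, ended at a median of base 3121, which is a lower bound on scaffold length, and at base 191561 on large scaffolds. Scaffold length also bounds the spacing, so closer spacing and shorter scaffolds cannot be told apart here.

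Peaks on small scaffolds were shallower than those on large scaffolds under the same ceiling. Their median was 31 summed reads, with a range of 8 to 395 and quartiles of 22 and 57, while large-scaffold peaks had a median of 41 and quartiles of 28 and 67. Each library gave the median small-scaffold peak 16 reads, equal to 5.04 CPM (reads scaled to one library size) in the unsorted and 5.14 CPM in the sorted library. Peaks with under 30 reads made up 47.6% of the small-scaffold set, 28.9% of the large-scaffold set and 54.7% of the 93285 chromosome peaks under the ceiling. At the other end the order changed, because 13.5% of small-scaffold peaks and 13.2% of large-scaffold peaks reached 100 reads, against 4.05% of chromosome peaks. The 511 small-scaffold peaks with at least 100 reads held 45.0% of the reads of the set, where the 2417 such peaks on large scaffolds held 38.8%.

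**Figure D1:**
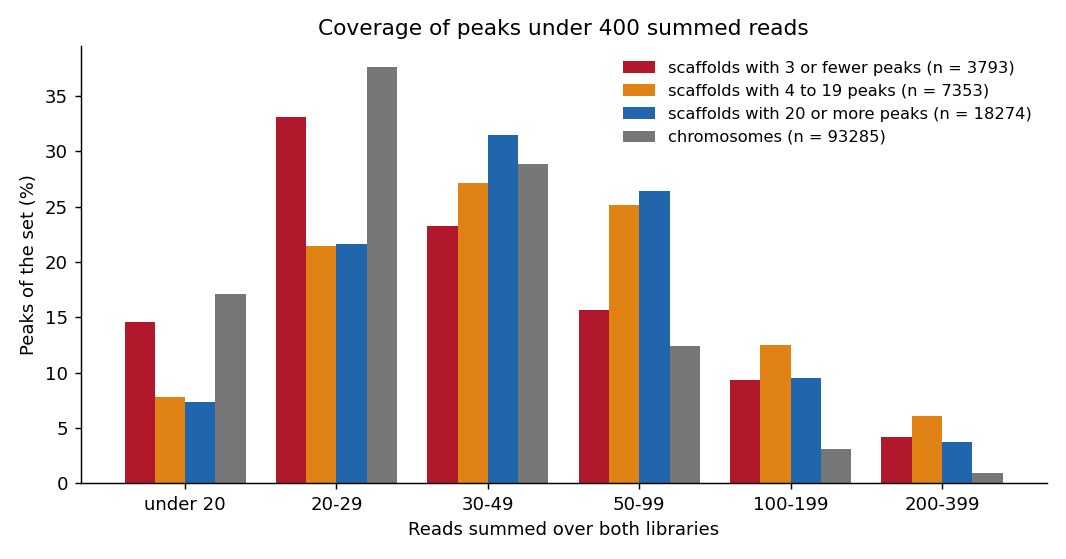
Share of peaks (%) in 6 classes of reads summed over both libraries, for small scaffolds (3 or fewer peaks), scaffolds with 4 to 19 peaks, large scaffolds (20 or more peaks) and chromosomes, all under 400 reads. Small scaffolds had 33.1% of their peaks at 20 to 29 reads, against 21.6% on large scaffolds, while the shares from 100 reads upwards were close to each other.

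Single peaks had a median of 27 reads, peaks on scaffolds with 2 peaks a median of 31 and those on scaffolds with 3 peaks a median of 34. Just outside the limit, peaks on scaffolds with 4 peaks had a median of 36. The median was highest, 47 reads, on scaffolds with 7 to 9 peaks, and was 37 on those with 100 or more. Peaks with at least 100 reads made up 9.90%, 15.1% and 14.7% of the sets with 1, 2 and 3 peaks per scaffold, in that order. The ceiling left out 193 peaks on 137 small scaffolds, and 77 small scaffolds had no peak under it. The 5 peaks with most reads inside the ceiling, on scaffold_7472, scaffold_7036, scaffold_8108, scaffold_5911 and scaffold_9441, had 395, 392, 389, 385 and 384 summed reads. The 5 just outside it, on scaffold_2199, scaffold_7988, scaffold_7239, scaffold_8399 and scaffold_6102, had 402, 404, 406, 406 and 408.

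Members that shared a small scaffold with a peak of 400 or more reads were themselves deeper. These 75 peaks on 60 scaffolds had a median of 116 reads, against 32 reads for the other 2637 peaks on scaffolds with 2 or 3 peaks. Of them, 54.7% reached 100 reads, against 13.8% of the others. Peaks of 1 scaffold share their source and are not independent.

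Small-scaffold peaks began at a median of base 2102 from the scaffold start, with a lowest start of base 3 and a highest of base 57680. They began in the first 1000 bases in 27.6% of cases and in the first 5000 bases in 84.3%, against 0.985% and 3.34% on large scaffolds. Scaffold length bounds this distance and was not known, so the length of the scaffold and the place of the peak cannot be told apart here. The first peak of each scaffold, whatever its coverage, had a median start at base 1192 on 2305 small scaffolds and at base 1049 on 341 large scaffolds. It lay in the first 250 bases on 14.3% of small and 21.1% of large scaffolds. Among small scaffolds the first peak began at a median of base 1892 where it was the only peak, at base 906 where there were 2 peaks and at base 730 where there were 3. A first peak is the lowest start of its scaffold, so the number of peaks alone can move it. The fall from 1 to 3 peaks did not go on to large scaffolds, where the median was base 1049. Over all peaks of the set the medians were base 1968, 1939 and 2314 for scaffolds with 1, 2 and 3 peaks, without such a fall.

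On small scaffolds, well covered peaks were more frequent close to the scaffold start. Of the 308 small-scaffold peaks in the first 250 bases, 62 had at least 100 reads, which is 20.1% (95% Clopper-Pearson interval 15.8 to 25.05). The intervals of these shares take peaks as independent and are given as a description. The share was 14.4% of 787 peaks from base 1001 to 2000 (12.0 to 17.0), 12.5% of 1365 peaks from base 2001 to 5000 (10.7 to 14.3) and 6.60% of 197 peaks beyond base 10000 (3.56 to 11.0). No such order was seen on large scaffolds, with 15.9% of 69 peaks in the first 250 bases (8.24 to 26.7) and 13.0% of 17293 beyond base 10000. Their highest class was base 5001 to 10000, with 19.7% of 371 peaks (15.8 to 24.1). The interval of their first class included both 20.1% and 13.0%, so it cannot show whether the order was absent there. Within single small scaffolds the order was not seen. Among the 1102 small scaffolds with 2 or 3 peaks in the set, the first had more reads than the last on 528 and fewer on 551, with equal numbers on 23. The median was 32 reads for the first and 33 for the last of these peaks. Scaffolds whose last peak ended beyond base 8000 had 8.10% of their 457 peaks at 100 reads or more, against 14.4% of 1619 peaks where it ended between base 2001 and 4000. The share was 15.8% of 525 peaks where the last peak ended over base 1000 and up to 2000, and 13.7% of 966 peaks over base 4000 and up to 8000. From base 1000 to 8000 the intervals overlapped (12.8 to 19.2, 12.7 to 16.2 and 11.6 to 16.0), so these classes are not clearly ranked. Only the interval beyond base 8000, 5.76 to 11.0, lay below them. Where the last peak ended by base 1000 the share was 11.5% of 226 peaks (7.65 to 16.4), an interval that included 15.8%, 14.4% and 13.7%.

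**Figure D2:**
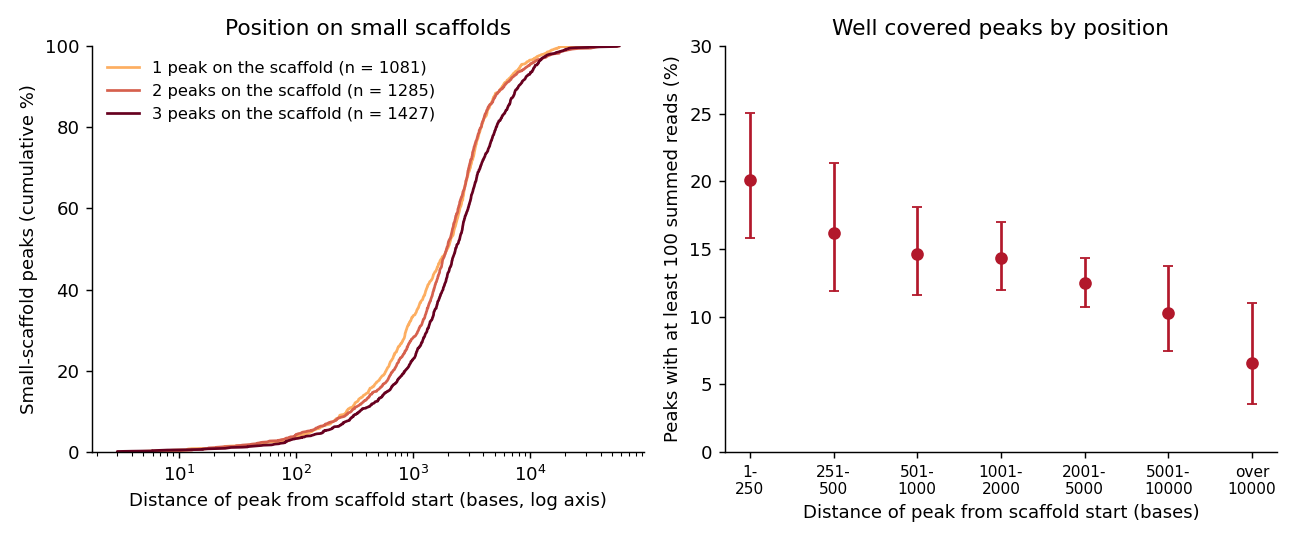
Left, cumulative share (%) of small-scaffold peaks by distance of the peak from the scaffold start in bases (log axis), for scaffolds with 1, 2 or 3 peaks. Right, share (%) of small-scaffold peaks with at least 100 summed reads by distance class, with 95% Clopper-Pearson intervals, going from 20.1% in the first 250 bases to 6.60% beyond 10000 bases.

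The 5 peaks nearest a scaffold start, among those with at least 50 reads, began between base 3 and base 6. On scaffold_2695, bases 3 to 402, there were 68 unsorted and 40 sorted reads, a log2 ratio of -0.73 (95% interval -1.34 to -0.15). The other 4, on scaffold_4342, scaffold_6458, scaffold_9527 and scaffold_8920, had 333, 160, 360 and 338 summed reads, and their log2 ratios of -0.12, -0.40, -0.034 and -0.055 had intervals that included 0.

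The small-scaffold peaks under the ceiling held 105582 unsorted reads, 3.32% of that library, and 99890 sorted reads, 3.21%. The 193 peaks above it on small scaffolds held a further 108541 unsorted and 92598 sorted reads. With each library scaled to its total, the log2 ratio of sorted over unsorted was -0.050 (-0.062 to -0.037). It was -0.024 (-0.029 to -0.019) on large scaffolds, -0.087 (-0.095 to -0.079) on the 1055 scaffolds with 4 to 19 peaks and 0.084 (0.080 to 0.087) on chromosomes, all under 400 reads. The sign of the small-scaffold value depended on the scaling, because the 5000 deepest peaks, taken as the scale, add 0.16 to every ratio and put it at 0.11. Differences of pooled log2 ratios between sets of peaks do not depend on that choice, but counts of single peaks do.

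At like coverage the small scaffolds lay a little below the large ones. With large-scaffold peaks weighted to the reads of the small-scaffold set in each of 6 coverage classes, the difference, small minus large, was -0.022 on the log2 scale (-0.036 to -0.0086). Peaks varied more than counting error gives, with a dispersion of 1.48 on small and 1.51 on large scaffolds, where counting error alone gives 1. Widening the interval by the dispersion of each class gave -0.041 to -0.0035. The widening takes peaks as independent, which peaks of 1 scaffold are not, so this interval may still be too narrow. Over the 341 large scaffolds taken singly, the ratio of pooled reads had a median of -0.0080, quartiles of -0.089 and 0.072 and a range of -0.59 to 0.64, a spread that includes the counting error of each scaffold (a median of 2204 reads).

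The difference was not spread evenly over coverage. Under 50 reads the intervals of the difference included 0 in all 3 classes, with small-scaffold ratios of 0.068 under 20 reads, 0.042 at 20 to 29 and 0.0076 at 30 to 49. At 50 to 99 reads the ratio was -0.066 (-0.094 to -0.038) on small and -0.00057 (-0.010 to 0.0093) on large scaffolds, a difference of -0.065 (-0.095 to -0.036). At 100 to under 200 reads it was -0.12 (-0.15 to -0.098) against -0.038 (-0.050 to -0.026), a difference of -0.085 (-0.11 to -0.057). These classes held 593 and 353 small-scaffold peaks, of which 45.0% and 33.7% were above 0, against 49.98% and 46.6% on large scaffolds. At 200 to under 400 reads the order turned, with -0.083 on small and -0.13 on large scaffolds, a difference of 0.047 (0.016 to 0.077). That class held only 158 small-scaffold peaks, and its interval widened by dispersion, -0.0052 to 0.099, included 0. The widened intervals at 50 to 99 and 100 to under 200 reads, -0.10 to -0.026 and -0.12 to -0.045, did not, with peaks taken as independent.

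**Figure D3:**
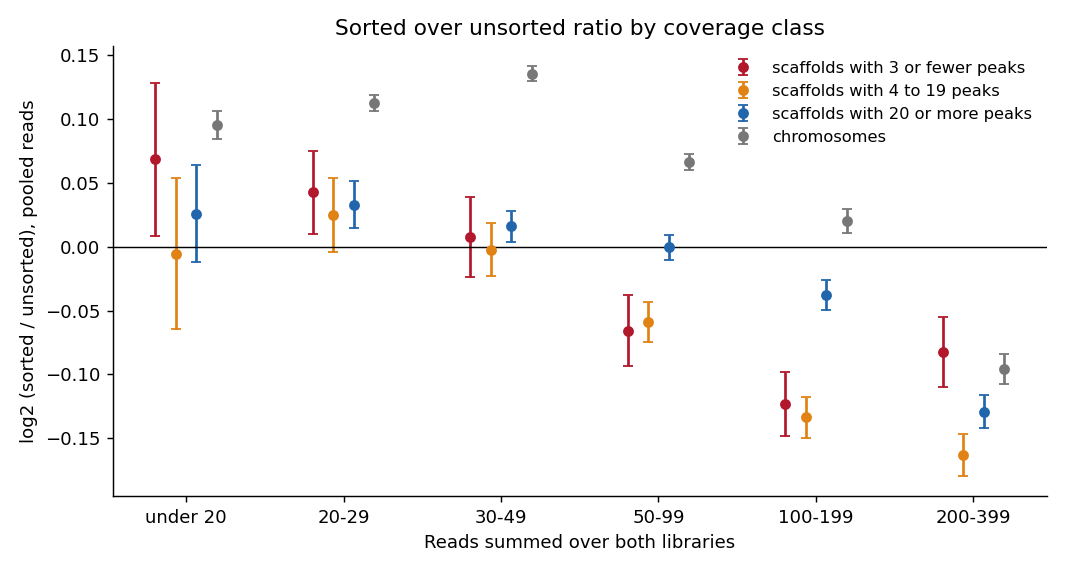
Log2 ratio of sorted over unsorted pooled reads by class of reads summed over both libraries, for the 4 sets of peaks, scaled to library totals. Bars are 95% Clopper-Pearson intervals and cover counting error only. Small scaffolds lay under large ones at 50 to 99 reads (-0.066 against -0.00057) and at 100 to under 200 reads (-0.12 against -0.038), and over them at 200 to under 400 reads (-0.083 against -0.13).

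Beside scaffolds with 4 to 19 peaks, the small scaffolds lay a little higher at like coverage. From 20 to under 200 reads the differences, small minus 4 to 19 peaks, were between -0.0069 and 0.017 and their intervals included 0, as they did under 20 reads, where the difference was 0.074. At 200 to under 400 reads it was 0.081 (0.049 to 0.11). Weighted over all classes it was 0.025 (0.010 to 0.040).

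The ratio at like coverage differed with the number of peaks on the scaffold, though not clearly within the set. Relative to large scaffolds, single peaks lay at 0.013 (-0.013 to 0.039), peaks on scaffolds with 2 peaks at -0.029 (-0.050 to -0.0070) and those on scaffolds with 3 peaks at -0.039 (-0.059 to -0.018). Widened by dispersion, the interval for 2 peaks, -0.058 to 0.00044, included 0, and that for 3 peaks, -0.067 to -0.010, did not. Both overlapped the widened interval of single peaks, so peak numbers within the set are not clearly ranked. Beyond the limit the difference was -0.050 for 4 peaks, -0.052 for 5 to 6, -0.067 for 7 to 9, -0.051 for 10 to 14 and -0.032 for 15 to 19 peaks. The lowest values thus lay on scaffolds of middling peak number. For 7 to 9 peaks the widened interval, -0.092 to -0.042, lay below that of single peaks (-0.023 to 0.049), with peaks taken as independent. It overlapped the widened intervals for 2 and 3 peaks, so those are not clearly ranked. Scaffolds with 3 and 4 peaks, on either side of the limit, had unweighted ratios of -0.062 and -0.082, with overlapping intervals of -0.081 to -0.042 and -0.10 to -0.062.

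**Figure D4:**
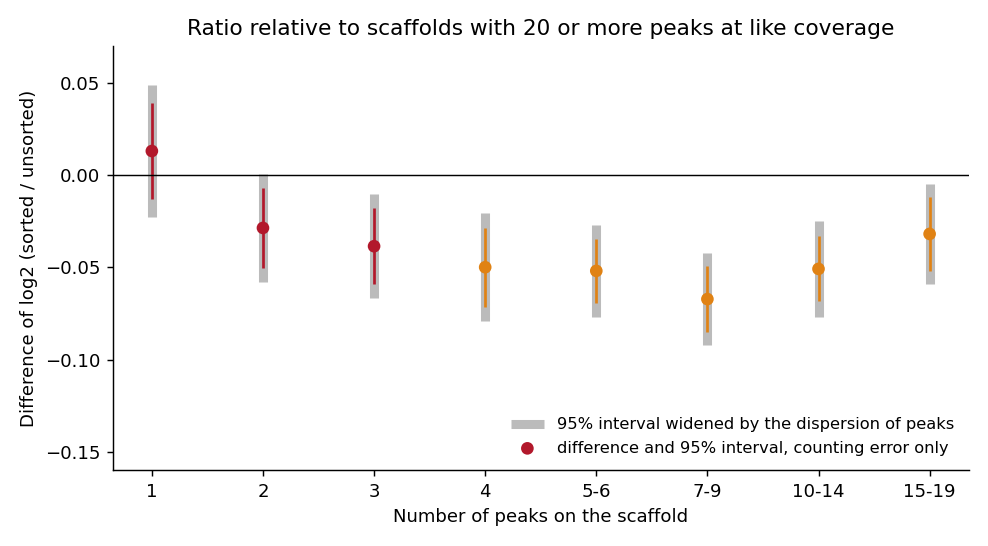
Difference of the log2 ratio of sorted over unsorted from scaffolds with 20 or more peaks at like coverage, by number of peaks on the scaffold (red, 3 or fewer; orange, 4 to 19). Thin lines are 95% intervals from counting error and grey bars are intervals widened by the dispersion of peaks. The value went from 0.013 for single peaks to -0.067 for 7 to 9 peaks and -0.032 for 15 to 19.

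Distance from the start showed no graded relation with the ratio. Against the remaining small-scaffold peaks at like coverage, peaks in the first 250 bases lay at -0.015 (-0.056 to 0.027) and those from base 501 to 1000 at 0.0040 (-0.032 to 0.040). Of 7 distance classes, 6 had intervals that included 0. The exception was base 5001 to 10000, with 9650 unsorted and 9642 sorted reads in 398 peaks, which lay 0.081 higher (0.038 to 0.12). The next class, beyond base 10000, was at -0.0013 (-0.067 to 0.065). By the end of the last peak of the scaffold, the difference from large scaffolds at like coverage was -0.021 (-0.073 to 0.030) up to base 1000. It was -0.035 (-0.068 to -0.0022) up to base 2000 and -0.032 (-0.052 to -0.012) up to base 4000. Up to base 8000 it was -0.0084 (-0.034 to 0.017), and beyond that 0.0012 (-0.039 to 0.041). These intervals overlapped, so the classes are not clearly ranked. Beside the 610 large-scaffold peaks that began in their first 5000 bases, the small-scaffold set lay at -0.031 (-0.064 to 0.0019). The 75 peaks that shared a scaffold with a peak of 400 or more reads had 5700 unsorted and 4887 sorted reads. Their ratio of -0.19 (-0.25 to -0.14) was close to the -0.20 of the 193 peaks above the ceiling, and lay 0.11 below that of the other peaks on scaffolds with 2 or 3 peaks at like coverage (difference -0.11, -0.17 to -0.054).

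Single peaks were counted as differing where they had at least 20 summed reads, had a ratio of 2-fold or more, and an equal level lay outside the 95% interval. Of the 3240 small-scaffold peaks that reached 20 reads, 79 were higher in the sorted library by this rule (2.44%, 1.94 to 3.03), against 3.53% of all 105380 such peaks in the table. Another 72 were lower (2.22%, 1.74 to 2.79), against 1.65% of all peaks. Large-scaffold peaks, weighted to the coverage of the small-scaffold set, had 2.20% higher and 1.86% lower, both within the intervals of the small-scaffold shares. Those intervals also take peaks as independent. The balance between directions followed the scaling. With library totals 52.3% of the differing small-scaffold peaks were higher, against 53.3% on large scaffolds and 68.2% over all peaks. The small-scaffold share was 41.1% with TMM factors and 48.0% with the size factors of DESeq2. It was 80.2% with the 5000 deepest peaks as the scale and 38.8% after a loess correction of the trend with coverage. Nearly all of the differing peaks were shallow. Of the 151, 77 had 20 to 29 reads and 56 had 30 to 49, where counting error is largest. These classes also held most of the peaks tested, 1254 and 882 of the 3240. The differing peaks were 6.14% and 6.35% of them, against 4.78% and 5.70% in the same classes on large scaffolds. Among the 511 peaks with at least 100 reads, 1 was lower and 0 were higher. The 95% Clopper-Pearson interval of the share higher reached 0.719%, where 3 counts would be 0.587%. Large scaffolds had 6 higher and 9 lower among 2417, which is 0.248% and 0.372%. The small-scaffold intervals, 0 to 0.719% higher and 0.0050 to 1.09% lower, included these shares. The shares over all peaks of that depth are not given here.

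At least 50 reads were found at 1104 small-scaffold peaks; the interval lay above 0 for 56 of them and below 0 for 121, which is 5.07% and 11.0%. On large scaffolds it was 5.36% and 8.04% of 7235, and 6.44% and 8.57% over all 27966 such peaks. This balance turned with the scale, since the 5000 deepest peaks as the scale gave 113 above and 37 below among the small-scaffold peaks. These were 10.2% and 3.35%, against 11.3% and 3.73% on large scaffolds and 13.0% and 4.22% over all peaks. On that scale the small-scaffold share below 0 was thus not higher than that on large scaffolds. With TMM factors the share below 0 was 15.3%, against 10.8% on large scaffolds and 11.1% over all peaks. The size factors of DESeq2 gave 12.3%, against 9.34% and 9.68%. None of these shares was weighted for coverage, and deeper peaks have narrower intervals. At least 100 reads were held by 511 of the 1104 small-scaffold peaks and by 2417 of the 7235 large-scaffold peaks. The highest by its interval bound was on scaffold_5960, bases 1770 to 2169, with 58 sorted reads for 15 unsorted ones, a 3.85-fold higher level (log2 ratio 1.95, 1.14 to 2.91). The other peaks of that scaffold, at bases 212 to 611 and 4821 to 5220, had 10 and 24 reads and 12 and 22 reads, so all 3 had ratios above 0. On scaffold_3044, bases 5386 to 5785, there were 18 unsorted and 49 sorted reads (1.45, 0.67 to 2.34). Its neighbour at 6020 to 6419, with 39 and 47 reads, had an interval that included 0. The peak on scaffold_8914, bases 845 to 1244, had 15 and 37 reads (1.30, 0.43 to 2.30), while the neighbour at 1771 to 2170 lay slightly on the other side with 48 and 40. The peaks on scaffold_8199 (2163 to 2562, 17 and 38 reads) and scaffold_5871 (1047 to 1446, 19 and 41 reads) had log2 ratios of 1.17 and 1.12. The other peak of scaffold_8199, with 7 and 16 reads, was above 0 with an interval that included 0. Both other peaks of scaffold_5871, with 17 and 14 and with 23 and 15 reads, lay below 0 (-0.24 and -0.57), also with intervals that included 0. The remaining 3 of the 8 highest were single peaks of their scaffolds and better covered. They lay on scaffold_6252 (19 to 418, 65 and 113 reads), scaffold_7901 (2727 to 3126, 77 and 129 reads) and scaffold_7400 (2225 to 2624, 55 and 96 reads), with log2 ratios of 0.82, 0.77 and 0.83, under 2-fold.

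The lowest peak stood far from the rest. On scaffold_6203, bases 3576 to 3975, 64 unsorted reads faced 6 sorted reads, a 9.72-fold lower level (log2 ratio -3.28, 95% interval -4.88 to -2.18). The only other peak of that scaffold, at 82 to 481, also had 64 unsorted reads but 46 sorted reads (-0.44, -1.03 to 0.12), so the 2 intervals did not overlap. Next came scaffold_7566, bases 2740 to 3139, with 101 and 44 reads (-1.16, -1.71 to -0.64), the 1 differing peak with over 100 reads, and scaffold_7554, bases 2536 to 2935, with 122 and 63 reads (-0.92, -1.39 to -0.47). The neighbours on both of these scaffolds, with 89 and 62 and with 197 and 145 reads, also had intervals below 0 with library totals. On scaffold_7545 the peak at 1501 to 1900, with 154 and 88 reads (-0.77, -1.17 to -0.39), lay between 2 peaks above the ceiling, with 581 and 472 reads at 440 to 839 and 414 and 350 reads at 2441 to 2840. Those ratios, -0.27 and -0.21, were also below 0 but nearer to it. The remaining 4 of the 8 lowest lay on scaffold_7983 (2526 to 2925), scaffold_9343 (231 to 630), scaffold_4388 (2999 to 3398) and scaffold_8455 (1617 to 2016), with log2 ratios from -1.05 to -0.94. Of the 8 scaffolds, 7 had a ratio below 0 at every peak with library totals, the exception being the peak of scaffold_7983 at 1057 to 1456 with 21 and 24 reads. Each scaffold was chosen for a low peak, and most well covered small-scaffold peaks lay below 0 on this scale. Above 0 were 33.7% of the set at 100 to under 200 reads and 35.4% at 200 to under 400 reads, against 49.8% of the whole set. The ratio of the peak of scaffold_8455 at 31 to 430, -0.100, was nearer 0 than the 0.16 that the scale by the 5000 deepest peaks adds. These peaks were chosen for their ratios, which are given as a description.

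**Figure D5:**
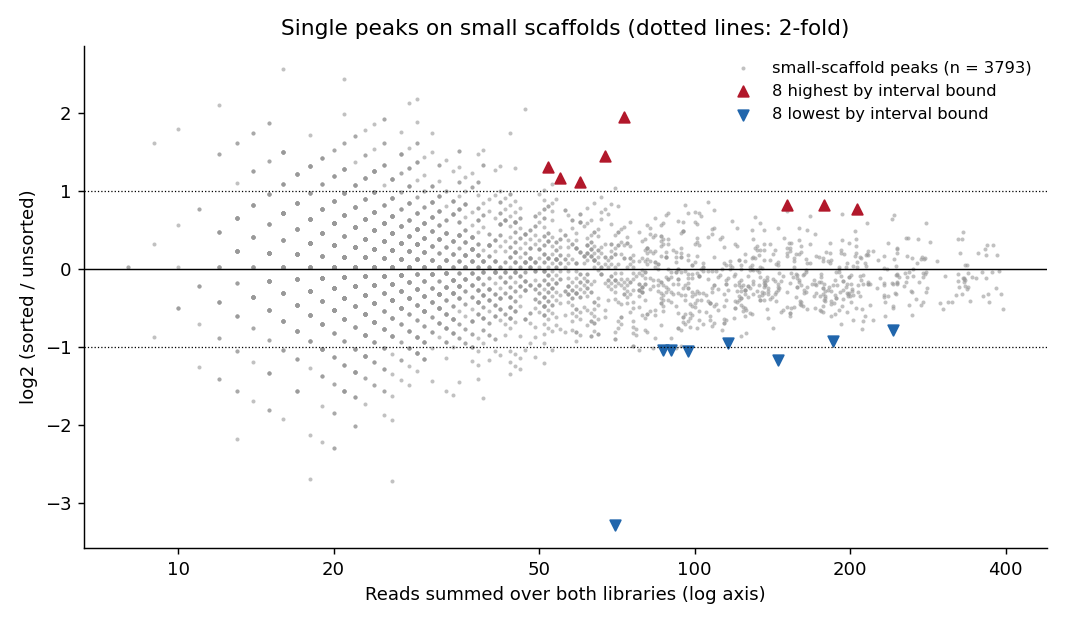
Log2 ratio of sorted over unsorted against reads summed over both libraries (log axis) for each of the 3793 small-scaffold peaks. Triangles mark the 8 highest and 8 lowest by interval bound among peaks with at least 50 reads, and dotted lines mark 2-fold. The spread narrows with coverage, and the peak of scaffold_6203 at -3.28 stands apart.

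Agreement in side between peaks of the same small scaffold was low, but counting error limits how high it can be at shallow peaks. The dispersion of small-scaffold peaks was 1.24 at 20 to 29 and 1.34 at 30 to 49 reads, where counting error alone gives 1. How strongly these peaks agree beyond counting error was not tested. Among 639 scaffolds with 2 peaks in the set both were on 1 side of an equal level in 59.0%. Among 463 with 3 peaks all were in 32.6%, and together this was 528 of 1102 scaffolds (47.9%). With 3 peaks more have to match, so the pooled share cannot be held against an even split. Of 1140 neighbouring pairs within 5000 bases and with at least 20 reads each, 57.1% shared a side, against 55.1% of large-scaffold pairs weighted to the same coverage. The log2 ratios of these neighbours correlated with r = 0.14 across the 1140 pairs and r = 0.13 across 9016 large-scaffold pairs, both across pairs of peaks of the same 2 libraries, which are not replicates. With at least 100 reads in each peak, 65.9% of 85 small-scaffold pairs and 61.8% of 739 large-scaffold pairs shared a side. By correlation the order was the opposite, with r = 0.21 across these small-scaffold pairs and r = 0.33 across the large-scaffold pairs, and 0.19 and 0.22 from 50 reads in each peak. The 3 scaffolds with 3 peaks in the set and most reads show the range. On scaffold_4846 the peaks at 1366, 2625 and 3946 had 207 and 163, 100 and 92, and 130 and 84 unsorted and sorted reads, with ratios below 0 except that the peak at 2625 went to 0.068 with the 5000 deepest peaks as the scale. On scaffold_5047 the peaks at 2314, 3254 and 4131 had 113 and 133, 134 and 131, and 167 and 202 reads, with log2 ratios of 0.26, -0.0023 and 0.30. On scaffold_4201 the peaks at 369 and 1321 were higher, with 140 and 191 and 60 and 85 reads (0.48 and 0.53), while the third at 4908 had 145 and 132 reads (-0.10, -0.46 to 0.24).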

How the data were processed

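Per the file headers, the deposited values were raw read counts in 1 merged set of peaks for 1 unsorted and 1 sorted library. Per the submitters' processing notes, featureCounts, MACS2, Bowtie, Bowtie2, SAMtools and Trim Galore were used. Their versions and roles, the genome build, and the handling of duplicate and multiply matching reads were not given in the sources used here. On chromosome 1 the last peak ended at base 194891458, and the gene table at hand (assembly UCB_Xtro_10.0) reached base 217419418, so it was not used.

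Scaffold size was the number of peaks with a position. A peak number without a position stood inside or next to 420 of the 2228 small scaffolds (inside in 5), so some may have held more peaks.

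Log2 ratios used library totals and, for single peaks, a prior count of 0.5; a peak with equal raw counts therefore lies just above 0, as 218 did. Intervals of single-peak and pooled ratios were exact Clopper-Pearson intervals of the sorted share. Those of shares of peaks were exact Clopper-Pearson intervals over peaks taken as independent. Coverage classes were under 20, 20 to 29, 30 to 49, 50 to 99, 100 to under 200 and 200 to under 400 summed reads. Differences at like coverage used the binomial variance of each class. Dispersion was Pearson's chi-square per degree of freedom over single peaks, so widened intervals take peaks as independent. Depth limits single peaks, and PCR copies cannot be told from separate molecules. edgeR's test across replicates could not be fitted with 1 library per group, so edgeR 4.0.16 supplied TMM factors only; limma 3.58.1 gave the loess correction (span 0.3) in R 4.3.3. DESeq2 size factors were computed as medians of ratios. Python 3.11.15 with SciPy 1.17.1 was used otherwise. The functions were tested on simulated counts with counting error alone, with set fold changes at peaks of at least 50 reads. That check covered neither the widened intervals nor calls at shallower peaks.

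Named peaks were the 8 highest and 8 lowest by the interval bound nearest 0 among those with at least 50 reads, the 5 with most reads, the 5 just over the ceiling, the 5 nearest a start with at least 50 reads, and 3 scaffolds with 3 peaks and most reads. The set and these rules were chosen with earlier results of these data known. Distance, scaffold-reach and neighbour breakdowns, the set with 4 to 19 peaks, and other scales for the interval counts from 50 reads, were added after the data were seen.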

Additional observations from a re-analysis of the deposited data

Results flagged for a closer look

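Reads were also present at peaks that entered no comparison here, because the table gives them no position. There were 24 such peaks whose number directly precedes or follows that of a small-scaffold peak, with 113 unsorted and 126 sorted reads, 239 in all, at 5 to 15 summed reads each. A count of 0 would allow up to 3 reads per library. Whether these peaks lie on the small scaffolds cannot be told apart from their lying on the next sequence in the table.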

How the results depend on the processing

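The pooled log2 ratio of small-scaffold peaks was -0.12 under TMM, -0.080 under the size factors of DESeq2 and 0.11, on the other side of 0, where the 5000 deepest peaks set the scale; these shift all ratios alike by construction. It was -0.013 for scaffolds with 1 peak, -0.068 for those with 5 or fewer and -0.12 without the ceiling. The difference from large scaffolds at like coverage was 0.013, so on the other side, for scaffolds with 1 peak, -0.037 for 5 or fewer, -0.040 under 200 reads, -0.051 without the ceiling and -0.091 beside chromosome peaks. The causes were not tested. Over the other alternatives it stayed between -0.031 and -0.016. Differing peaks numbered 151 (4.66% of 3240, against 5.19% of all 105380 peaks with at least 20 reads). With scaffolds of 1 and of 5 or fewer peaks, which hold fewer and more peaks, 48 (5.58% of 860) and 239 (4.65% of 5139) were found. At a minimum of 50 reads there were 18 (1.63% of 1104). Of the 3240, 255 (7.87%) differed at 1.5-fold, 39 (1.20%) at 3-fold, 55 (1.70%) with 99% intervals and 90 (2.78%) with a prior count of 5. These settings are stricter or looser by construction, and the shares over all peaks at them are not given here. Median coverage was 27 reads for 1 peak, 33 for 5 or fewer peaks and 32 without the ceiling, and the median start was base 1968 and 2403 for the first pair. Scaffolds whose peaks all shared a side made up 39.4% with 5 or fewer peaks, where more peaks have to match. All 175 values of the 35 named small-scaffold peaks with another scale, a prior count of 5 or the loess correction stayed inside their intervals; 13 of them, at 7 peaks whose intervals included 0, lay on the other side of 0. Leaving out scaffolds next to a peak number without a position, the 10 scaffolds with most reads, or peaks beside a peak of 400 or more reads, and setting large-scaffold peaks of the first 5000 bases beside the set, were chosen after seeing the data. No paired analysis was possible because there was 1 library a group.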
